A study of Homo sapiens with 48 samples.

Results

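HT1376 is an established human bladder cancer cell line, and the 3 libraries described here were made from HT1376 cells given only DMSO, the vehicle. They were 3 of 48 libraries in the series, in which 8 bladder cancer lines received either DMSO or 250 nM CPI-0209, an inhibitor of the histone methyltransferase EZH2, for 4 days. The members were chosen by line and treatment alone, and the comparison was with the 21 DMSO libraries of HT1197, KU1919, SW780, T24, TCCSUP, VMCUB and 639V, 3 per line. The labels give no genotype, passage or clone for any line, and nothing in them says that the 3 libraries of a line came from separate cultures. Where libraries were the units of a test, p-values therefore measure the spread between libraries, which may be technical. Where the counts of each line were summed before the test, p-values measure the spread between the other lines. Growth media differed between lines: HT1376 shared its supplemented MEM with HT1197 and TCCSUP, while SW780, VMCUB and 639V grew in DMEM, KU1919 in RPMI1640 and T24 in McCoy's 5A. Line and medium cannot be told apart for those 5 lines.

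The urothelium that lines the bladder is built from basal cells, which carry keratins 5 and 14 and the transcription factor p63, and from luminal cells, which carry uroplakins and keratin 20 under GATA3, FOXA1 and PPARG. Some bladder cancers take on squamous features and express genes of the epidermis, among them cornified envelope proteins and S100 proteins. HOX genes are homeobox transcription factors that record position along the body axis, and cancer/testis antigens are genes whose expression in healthy adults is largely limited to the germ line.

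HT1376 DMSO libraries held 35937902 to 40639093 counts, within the 29759605 to 49358560 of all 24 DMSO libraries, and mitochondrial genes took 3.97% to 4.50% of them, against 1.75% to 5.27% over all. Levels are given as CPM, counts scaled to a common library size, on TMM-scaled library sizes. HT1376 DMSO replicate 1 stood apart from replicates 2 and 3: its chi-square per degree of freedom over genes was 18.13 and 27.85 against them, while replicates 2 and 3 differed by 4.41. Across 10833 genes of at least 5 CPM, the log2 ratio of replicate 1 to the other 2 fell with transcript length (Spearman rho −0.594, against −0.302 for replicate 2 over replicate 3), with a median of 0.13 in the 25% shortest genes and −0.15 in the 25% longest. Genes are not independent replicates, and the part of this trend in any result was not tested. Where the count of a gene group printed below differs without replicate 1, that count is given too.

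On the high side HT1376 was set apart by genes of squamous epithelium, HLA-G and X-linked cancer/testis antigens, and on the low side by HOX genes. A gene was called set apart when edgeR's quasi-likelihood test put HT1376 above, or below, each of the other 7 lines at an adjusted p under 0.05 and by at least 2-fold each time. Of 18643 genes tested, 754 (4.04%) were set apart higher and 397 (2.13%) lower, of which 663 and 375 were protein coding. Without replicate 1 the counts were 755 and 399, with 712 and 368 genes shared. The second test took each line's summed counts as 1 unit, 1 unit against 7, and so assumed that HT1376 varies as the other lines do. By edgeR it called 53 of 21498 genes higher (0.247%) and 3 lower (0.014%). Without replicate 1 it called 51 and 3. All 53 and all 3 were also set apart. These calls depended on which lines were included: without HT1197 there were 49 higher and 4 lower, while leaving out any 1 of the other 6 lines left 8 to 21 higher and 0 lower. DESeq2 called 357 higher and 424 lower. In the text below "set apart" refers to the first test and "line-unit test" to the second.

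**Figure D1:**
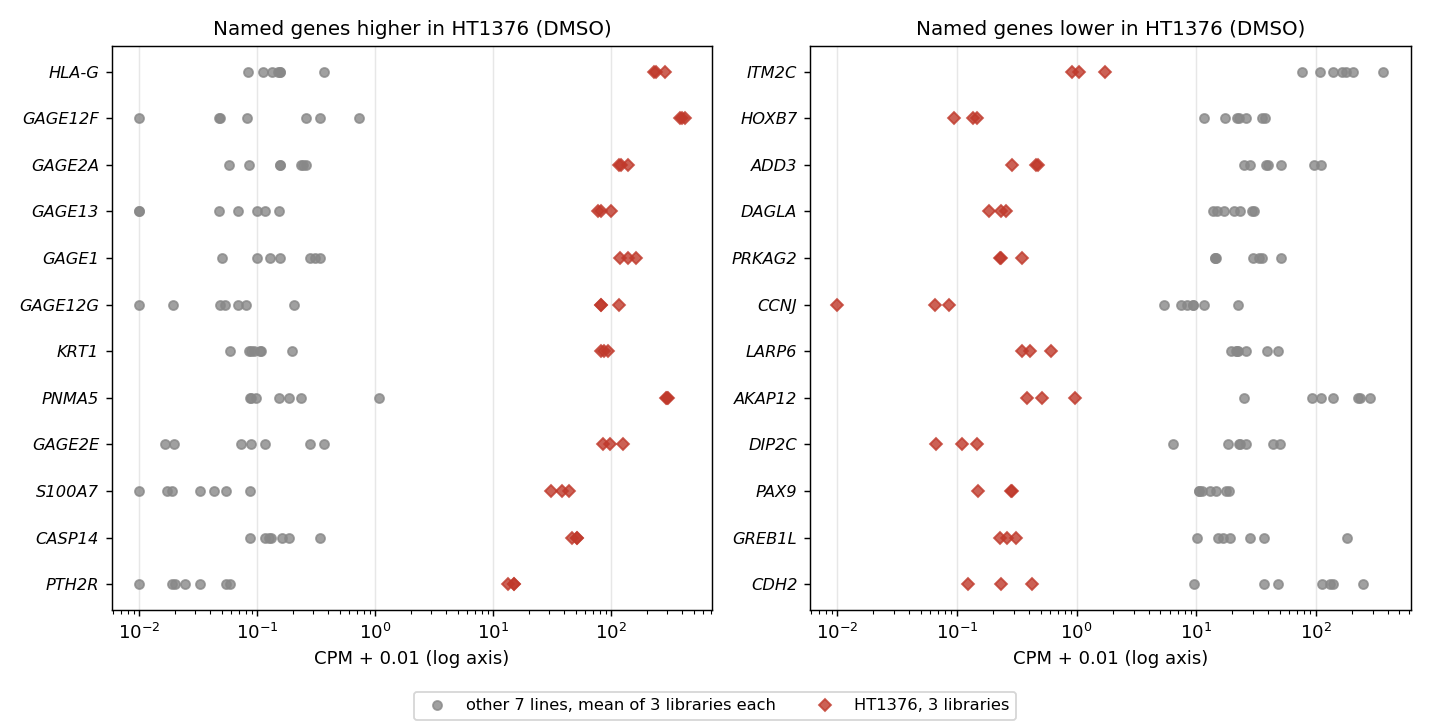
Levels of the 12 named genes set apart higher (left) and the 12 set apart lower (right) in DMSO, as CPM + 0.01 on a log axis. Red diamonds are the 3 HT1376 libraries and grey circles the means of the other 7 lines over 3 libraries each. In each row the diamonds lie clear of the circles, by 150.72-fold for CASP14 and 703.32-fold for HLA-G between means.

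Squamous and epidermal genes were the broadest group on the high side. Among 43 listed basal and squamous genes, 17 were set apart higher and none lower, and without replicate 1 the numbers were the same. HT1376 ranked first of the 8 lines for 20 of the 43, against 14.0% of all genes tested. The median log2 difference of the list was 1.37, where all genes tested had a median of −0.26, and 4.47 against −0.08 when each line counted equally on the log scale with levels under 3 counts raised to 3 counts. The summed level of the list did not mark HT1376, at 14378 CPM between 888 CPM in 639V and 15406 CPM in VMCUB.

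KRT1, the keratin of suprabasal epidermis, measured 94.7, 87.4 and 82.7 CPM in the 3 HT1376 libraries. In the other lines its means ran from 0.049 CPM in 639V through a median of 0.0844 to 0.187 CPM in VMCUB. The groups did not overlap, and HT1376 was 475.95-fold above VMCUB, the nearest line. The log2 difference in the line-unit test was 9.88 ± 0.57 (SE, adjusted p = 0.000985 in edgeR).

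KRT14, the basal partner of keratin 5, reached 2927, 2667 and 2398 CPM, against 1.13 to 374 CPM in the other lines with a median of 6.47. It was the most abundant of the squamous genes named here per length of transcript, at 1168 CPM per kilobase of transcript against 35.5 for KRT1. KRT14 was set apart by 2.92 ± 0.33 (SE, log2) from VMCUB, its nearest line, but did not pass the line-unit test (adjusted p = 0.592 in edgeR). KRT5 itself was not particular to HT1376: it measured 986, 965 and 895 CPM, below VMCUB at 1694 CPM, and HT1376 had rank 3 of 8. TP63, which encodes p63, stood at 114, 136 and 134 CPM beside 134 CPM in KU1919.

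Genes of cornifying epidermis were high in the same way as KRT1. CASP14, a caspase of the cornified layer, measured 47.0, 51.6 and 51.6 CPM, against at most 0.333 CPM in SW780. SBSN, suprabasin, measured 17.8, 13.9 and 13.1 CPM, against at most 0.157 CPM in SW780. Both passed the line-unit test, with log2 differences of 8.39 ± 0.67 (SE, adjusted p = 0.00635) for CASP14 and 7.38 ± 0.64 (SE, adjusted p = 0.00811) for SBSN in edgeR.

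The S100 proteins of inflamed epidermis lay far above the other lines in all 3 libraries. S100A7, psoriasin, measured 43.7, 38.1 and 30.8 CPM, with 0 counts in 639V and at most 0.0766 CPM in TCCSUP. S100A8 measured 24.2, 20.3 and 19.8 CPM, against at most 0.193 CPM in TCCSUP. Its dimer partner S100A9 measured 104, 94.4 and 82.1 CPM, against at most 2.49 CPM in SW780. S100A7 and S100A8 passed the line-unit test in edgeR (adjusted p = 0.0326 and 0.0459), and S100A9 did not (adjusted p = 0.21). S100A7 shares close sequence with S100A7A, which was also set apart, so reads may have been split between them.

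Many of these genes sit together in the epidermal differentiation complex of chromosome 1. A list of its genes was drawn up after their values were seen and carries no test. Of its 64 genes, 43 could be tested and 23 were set apart higher, among them KPRP, LCE1F, LCE3D, PGLYRP3, PGLYRP4, SPRR2E and LORICRIN. KPRP, PGLYRP3, PGLYRP4 and SPRR2E were under 0.1 CPM in every other line and passed the expression filter only through HT1376. The share of tested genes set apart is therefore partly set by the filter. The summed level of the list did not mark HT1376, at 3075 CPM below HT1197 (3702 CPM) and VMCUB (3224 CPM). Several were scarce even in HT1376, such as LORICRIN at 0.619 CPM and LCE3D at 0.692 CPM, and 7 of the 64 had no count in HT1376. Without replicate 1 the count was 24, and by DESeq2 it was 18.

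Some cell contact genes were also set apart. PKP1, a desmosomal plaque protein of stratified epithelium, measured 244, 272 and 263 CPM, and the next line, VMCUB, had 4.31 CPM. DSC3, a desmosomal cadherin, had a mean of 465 CPM against at most 67.8 CPM. CLDN1, a tight junction claudin, measured 1229, 1234 and 1296 CPM, against 2.53 to 433 CPM elsewhere. Of 36 listed epithelial adhesion and polarity genes, PKP1, CLDN1 and CLDN3 were set apart higher and none lower. E-cadherin was not among them: CDH1 measured 235, 263 and 265 CPM and had rank 4 of 8.

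Luminal genes were mixed. GATA3 measured 108, 93.3 and 88.8 CPM, below HT1197 and SW780, and PPARG measured 46.1, 47.3 and 45.1 CPM, inside the range of 3.53 to 99.4 CPM. FOXA1, the pioneer factor of luminal cells, was nearly silent, at 0.15, 0.113 and 0.357 CPM. It shared that with HT1197, at 0.162 CPM, whereas the median of the other lines was 47.2 CPM. The uroplakin genes were expressed: UPK1B measured 346, 327 and 314 CPM (rank 2 of 8), UPK3B 41.1, 38.2 and 35.0 CPM (rank 3) and UPK2 4.99, 4.76 and 4.40 CPM (rank 3, with a median of 0.384 CPM elsewhere). ELF3, an epithelial transcription factor, had a mean of 164 CPM and rank 2. KRT20 was scarce in all lines, and HT1376, at 0.301, 0.141 and 0.22 CPM, also had rank 2. Of 29 tested luminal genes, none was set apart higher and 1, TBX2, lower. The median log2 difference of the list was −0.62 against the mean of the other lines and 1.04 when each line counted equally on the log scale, so its sign depended on that choice.

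**Figure D2:**
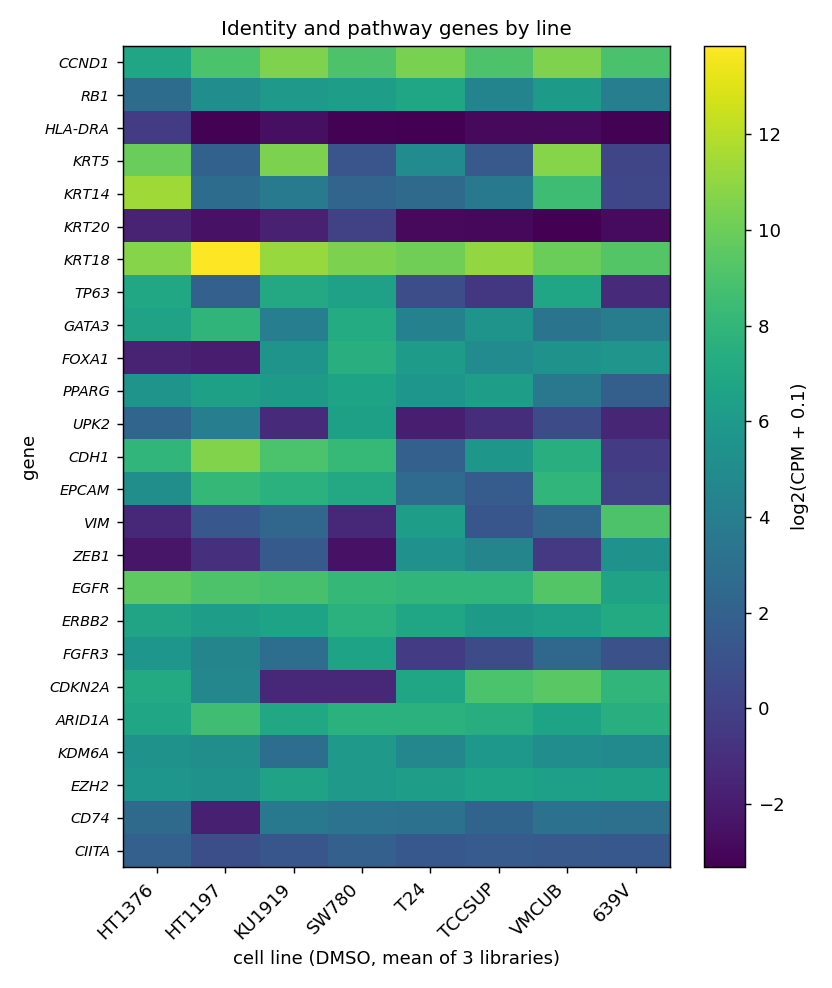
Mean levels of 25 identity and pathway genes in the 8 lines in DMSO, as log2(CPM + 0.1), with HT1376 in the first column and brighter cells for higher levels. KRT14 is brightest in HT1376, while FOXA1 is dark only in HT1376 and HT1197.

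HLA-G was the gene with the largest gap to its nearest line among the named genes. This class I molecule, known from the trophoblast of the placenta, measured 286, 241 and 231 CPM in HT1376. The other lines had 0.0742 to 0.36 CPM, with a median of 0.142. HT1376 was 9.51 ± 0.17 (SE, log2) above HT1197, the nearest line, and 10.72 ± 0.61 above the 7 lines in the line-unit test (adjusted p = 0.000985 in edgeR). Reads of class I genes can be shared between them, so the split is uncertain. HLA-B, at 197 CPM, was inside the range of the other lines. HLA-E and HLA-F were the other 2 of 16 listed class I genes set apart, by 1.02 ± 0.05 and 1.25 ± 0.11 (SE, log2). HLA-E lost that call without replicate 1, leaving 2 class I genes, and both lost it under scaling by library totals, leaving HLA-G alone. HCG4P8, a pseudogene, also belonged to the genes that HT1376 alone expressed, at 4.16, 4.34 and 4.29 CPM. It lies wholly inside HLA-G in the annotation, so its counts cannot be told apart from HLA-G reads.

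X-linked cancer/testis antigens formed the next group. Of 29 tested members of the listed antigens, 11 were set apart higher and none lower, with and without replicate 1. Members such as MAGEA8 passed the expression filter only through HT1376, so this share is partly set by the filter. The summed level of the list was 991 CPM in HT1376 against 1.97 CPM in 639V to 404 CPM in VMCUB. The median log2 difference was 1.62, and 4.73 with each line counted equally. GAGE12F measured 422, 395 and 382 CPM, against at most 0.719 CPM in HT1197. GAGE1, a related copy, measured 162, 138 and 118 CPM, against at most 0.334 CPM in TCCSUP.

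Other X-linked antigens showed the same gap. GAGE2A, GAGE13, GAGE12G and GAGE2E had means of 126, 86.4, 93.6 and 103 CPM, with at most 0.359 CPM in any other line. PNMA5, of the paraneoplastic antigen family, measured 300, 293 and 299 CPM against at most 1.07 CPM in HT1197. MAGEA8 measured 12.1, 10.6 and 10.5 CPM against at most 0.124 CPM in 639V. By contrast MAGEA3 at 109 CPM and MAGEA6 at 91.4 CPM overlapped with other lines, and PRAME, at 0.117 CPM, lay within 0.0193 to 77.6 CPM. GAGE copies are near-identical, so the division of reads among them is uncertain. Of 12 GAGE promoter windows in the RefSeq table, 7 had the same 300 bases.

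The promoters of CASP14, S100A7, GAGE12F and PAX9 are shown because they stand for the squamous genes, the antigens and the genes set apart lower (PAX9, described further on). They come from RefSeq on GRCh38.p14 and run from 250 bases before to 50 bases after the annotated start, with CG dinucleotides, the sites of DNA methylation, in capitals. CASP14 lies at chr19:15049230-15049529 on the plus strand, S100A7 at chr1:153460602-153460901 on the minus strand, GAGE12F at chrX:49560592-49560891 and PAX9 at chr14:36657318-36657617, both on the plus strand.
CASP14: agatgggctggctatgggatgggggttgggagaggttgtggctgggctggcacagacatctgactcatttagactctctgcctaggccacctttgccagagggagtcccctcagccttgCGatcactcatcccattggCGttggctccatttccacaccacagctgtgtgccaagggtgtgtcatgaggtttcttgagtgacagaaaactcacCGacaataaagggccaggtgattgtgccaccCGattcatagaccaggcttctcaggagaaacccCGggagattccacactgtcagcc
S100A7: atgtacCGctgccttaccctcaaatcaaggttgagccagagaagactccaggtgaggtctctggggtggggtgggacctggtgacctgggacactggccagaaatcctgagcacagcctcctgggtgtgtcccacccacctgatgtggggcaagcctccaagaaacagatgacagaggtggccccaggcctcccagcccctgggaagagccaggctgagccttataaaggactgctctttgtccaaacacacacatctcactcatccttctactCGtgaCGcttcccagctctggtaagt
GAGE12F: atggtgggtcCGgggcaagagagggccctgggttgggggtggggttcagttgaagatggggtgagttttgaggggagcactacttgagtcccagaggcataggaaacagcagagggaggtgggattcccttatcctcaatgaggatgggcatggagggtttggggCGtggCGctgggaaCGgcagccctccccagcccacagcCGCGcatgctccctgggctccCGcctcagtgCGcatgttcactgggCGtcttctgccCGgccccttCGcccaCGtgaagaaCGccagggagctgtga
PAX9: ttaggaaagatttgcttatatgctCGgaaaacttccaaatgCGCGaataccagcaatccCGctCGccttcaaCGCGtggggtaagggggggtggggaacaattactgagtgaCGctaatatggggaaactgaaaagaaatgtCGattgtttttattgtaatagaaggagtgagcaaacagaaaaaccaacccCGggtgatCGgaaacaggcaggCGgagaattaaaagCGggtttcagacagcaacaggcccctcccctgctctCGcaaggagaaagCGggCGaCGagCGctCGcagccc
CASP14 and S100A7 held 5 and 3 such dinucleotides, GAGE12F held 13 and PAX9 held 19, where the median of 27305 windows was 14. Windows with 5 or fewer made up 34.4% and windows with 19 or more made up 43.0% of all. Methylation was not measured, and since 70.1% of the genes tested had a window, under the 80% needed, gene groups were not compared.

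Some secreted growth factors were also set apart higher. VEGFA, the main angiogenic factor, measured 641, 612 and 637 CPM, against 25.5 to 186 CPM. AREG and HBEGF, ligands of the EGF receptor, had means of 265 and 132 CPM, against at most 94.6 and 58.6 CPM. EGFR itself measured 601, 863 and 877 CPM, and replicate 1 fell below the highest other line, VMCUB at 608 CPM. In the list of growth factor receptors and ligands, 3 of 35 tested genes were set apart higher and 1, the receptor FGFR1, lower, at 0.351, 0.732 and 0.522 CPM against 3.33 CPM or more.

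CYP1A1, the cytochrome induced through the aryl hydrocarbon receptor, measured 161, 143 and 149 CPM against at most 4.98 CPM in HT1197. It passed the line-unit test with a log2 difference of 6.73 ± 0.95 (SE, adjusted p = 0.0459 in edgeR). It was the 1 gene set apart higher of 35 tested xenobiotic and oxidative stress enzymes, a share below the 4.04% of all genes. ALDH1A3, an enzyme of retinoic acid synthesis, was the 1 set apart lower, at 1.48, 1.63 and 2.61 CPM against 12.5 CPM or more.

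Of 19 tested mucin and CEACAM genes, the cell surface mucins MUC1 and MUC16 were set apart higher and none lower. The list as a whole did not go with them: 8 of its 22 members reached 1 CPM in HT1376. Its median log2 difference was −1.07, or 0.61 with each line counted equally and levels raised to 3 counts. MUC16, a very long transcript, measured 254 CPM in replicate 1 and 455 and 458 CPM in replicates 2 and 3, against at most 104 CPM in TCCSUP. MUC1 measured 564, 660 and 626 CPM against at most 309 CPM in TCCSUP, and lost the call without replicate 2.

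Among 35 type I interferon-stimulated genes, IFITM1 alone was set apart, at 821, 738 and 610 CPM against at most 85.0 CPM in HT1197. Of 31 tested cytokines and chemokines, TNF, CXCL2, CXCL10, CXCL11 and CCL2 were set apart higher and LIF lower, and without replicate 1 the numbers were 4 and 1. TNF measured 13.3, 10.5 and 10.1 CPM against at most 2.07 CPM in T24, while CXCL10 was scarce at 1.08, 0.816 and 1.02 CPM. In the Wnt and hedgehog list WNT10A and WNT4 were set apart higher, and DKK1 and FZD7 lower, of 34 tested, and without replicate 1 the numbers were 3 and 2.

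**Figure D3:**
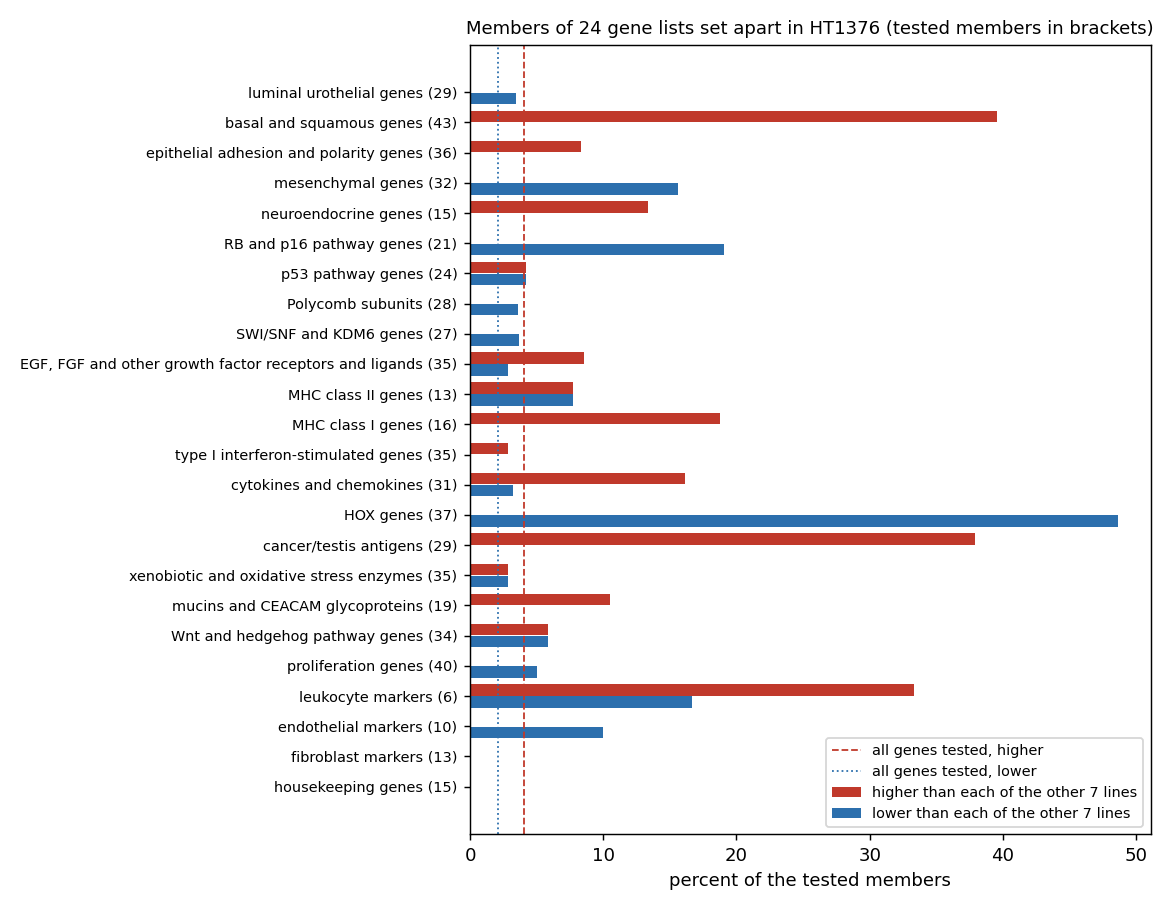
Percent of the tested members of 24 gene lists that were set apart higher (red) or lower (blue) in HT1376, with the number tested in brackets. The dashed and dotted lines mark all genes tested, 4.04% higher and 2.13% lower, and the longest bars are those of HOX genes (lower), basal and squamous genes and cancer/testis antigens (higher).

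The HOX genes were the group that HT1376 lacked most completely. Of 37 tested, 18 were set apart lower and none higher (17 and none without replicate 1), and HT1376 ranked last for 26 of them, against 14.8% of all genes tested. Their summed level was 6.59 CPM, where the other lines had 71.9 CPM in HT1197 to 791 CPM in 639V. The median log2 difference of the list was −8.10, and −5.66 with each line counted equally and levels raised to 3 counts, since 8 members had no count in HT1376.

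The clusters differed. All 9 tested HOXB genes were set apart lower, and their sum was 0.696 CPM against 29.5 to 515 CPM. HOXA genes summed to 4.59 CPM against 27.9 to 177 CPM, with 5 of 11 set apart. HOXC genes were as low in VMCUB, at 0.90 CPM, as in HT1376, at 1.19 CPM, and HOXD genes were as low in HT1197, at 0.154 CPM, as in HT1376, at 0.118 CPM. HOXB7 measured 0.125, 0.0845 and 0.137 CPM, against 11.5 CPM in HT1197 to 37.6 CPM in T24, and was 1 of the 3 genes the line-unit test called lower, by −7.67 ± 1.08 (SE, log2, adjusted p = 0.0459 in edgeR). HOXB4 had 3 counts over the 3 HT1376 libraries and was 131.23-fold lower than in VMCUB, the nearest line (95% counting interval 44.56 to 639.19).

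**Figure D4:**
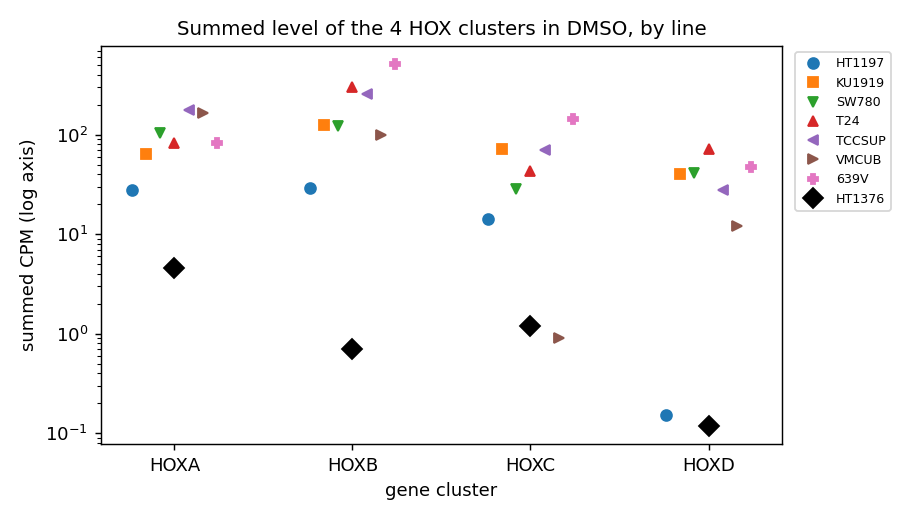
Summed CPM of the genes of each HOX cluster in DMSO, on a log axis, with the black diamond for HT1376 and a coloured symbol for each other line. HT1376 lies lowest for HOXA, HOXB and HOXD, but close to VMCUB for HOXC and close to HT1197 for HOXD.

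Genes that every other line expressed and HT1376 nearly lacked included several membrane and signalling genes. ITM2C, an integral membrane protein, measured 1.03, 0.901 and 1.70 CPM, against 76.3 CPM in VMCUB to 366 CPM in HT1197. ADD3, a subunit of the membrane skeleton protein adducin, measured 0.276, 0.45 and 0.467 CPM against 25 CPM or more. DAGLA, which makes the endocannabinoid 2-arachidonoylglycerol, measured 0.175, 0.225 and 0.247 CPM against 13.7 CPM or more. None of the HT1376 libraries of these genes came near the next line.

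PAX9, a transcription factor, measured 0.276, 0.141 and 0.275 CPM, in a narrow range of 10.6 to 18.7 CPM elsewhere. DAGLA and PAX9 were, with HOXB7, the genes called lower in the line-unit test (log2 −6.58 ± 0.90 and −5.84 ± 0.85, SE, adjusted p = 0.0459 and 0.0463 in edgeR), and these 3 calls were fragile. PAX9 lost it without replicate 2, under library totals and with no filter, HOXB7 lost it under library totals, and DAGLA and PAX9 lost it on leaving out any 1 line. HOXB7 lost it on leaving out any line but HT1197. PRKAG2, a subunit of the AMP-activated kinase, CCNJ, a cyclin, LARP6, which binds collagen mRNA, the kinase scaffold AKAP12, DIP2C and GREB1L had means between 0.0434 and 0.615 CPM, all set apart lower by at least 38.7-fold.

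Some mesenchymal genes were low in HT1376, but the list as a whole did not mark it. Its summed level of 1146 CPM lay above KU1919 (797 CPM), SW780 (605 CPM) and VMCUB (1057 CPM), and below the other 4 lines, which reached 19798 CPM. Of 32 listed mesenchymal genes, 5 were set apart lower and none higher (4 without replicate 1, without COL5A2): CDH2, COL5A2, COL6A1, COL6A2 and LOX. CDH2, N-cadherin, measured 0.226, 0.113 and 0.412 CPM against 9.54 to 246 CPM. VIM, vimentin, was at 0.201, 0.253 and 0.357 CPM, level with SW780 at 0.294 CPM, and ZEB1, a repressor of E-cadherin, at 0.0251, 0.113 and 0.165 CPM beside 0.075 CPM in SW780. The list was not uniformly low, with FN1 at 266 CPM and COL1A2 at 220 CPM, and its median log2 difference was −4.04, or −1.30 with each line counted equally.

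Cell cycle genes differed by less. RB1, the retinoblastoma tumour suppressor, measured 5.72, 6.17 and 8.19 CPM, against 16.3 CPM in 639V to 107 CPM in T24. CCND1, cyclin D1, measured 106, 114 and 113 CPM against 487 to 1505 CPM, and CDK6 and CCND3 had means of 9.95 and 26.9 CPM against at least 23.6 and 63.2 CPM. These were the 4 genes of 21 in the RB and p16 pathway that were set apart lower, and none was higher. CDKN2A, which encodes p16, was expressed at 154, 148 and 133 CPM, between 0.277 and 703 CPM.

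Of 40 proliferation genes, TK1 and CDC6 were set apart lower and HT1376 ranked last for 22, with a summed level of 4814 CPM below the 6036 to 10668 CPM of the other lines. MKI67, the proliferation antigen Ki-67, measured 216, 355 and 370 CPM, with replicate 1 lowest, against means of 535 CPM or more, and was not set apart. CDC6 lost its call without replicate 2. Growth rates were not measured.

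Most listed chromatin regulators were not set apart from the other lines. EZH2, the target of CPI-0209, measured 52.6, 50.5 and 53 CPM and had rank 7 of 8, in a range of 42.8 to 101 CPM. Of 28 Polycomb subunits only PCGF5 was set apart, lower, at 6.37, 7.04 and 7.15 CPM against 19 CPM or more. The summed level of these subunits was 1354 CPM, just below the 1366 to 2010 CPM of the other lines. In the SWI/SNF and KDM6 list DPF1 was set apart lower, of 27 tested, at 0.802, 0.732 and 0.797 CPM against 6.33 CPM or more. ARID1A, at 91.1, 119 and 126 CPM, and KDM6A, at 37.2, 44.2 and 45 CPM, overlapped with other lines. None of 15 housekeeping genes was set apart, and of 24 genes of the p53 pathway 1 was set apart higher (GDF15) and 1 lower (TIGAR).

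Markers of other cell types were mostly at low levels in these cultured cancer lines. Bulk levels cannot tell fewer expressing cells of a line from less RNA per cell. Leukocyte markers summed to 14.97 CPM, between 13.7 and 104 CPM elsewhere, and 4 of 16, CD2, MS4A1, LYZ and TYROBP, had no count. ITGAM was set apart higher and CD68 lower, with and without replicate 1. ITGAM, an integrin of myeloid cells, measured 3.94, 3.66 and 3.55 CPM. Endothelial markers summed to 37.7 CPM (29.5 to 259 CPM elsewhere, ESAM set apart lower of 10 tested), and fibroblast markers to 292 CPM (7.31 to 9081 CPM, none of 13 set apart). CHGA, a granule protein of neuroendocrine cells, was set apart higher at a mean of 2.09 CPM. The neuroendocrine list as a whole did not go with it. Of 15 tested, 2 were set apart higher and none lower, and without replicate 1 the number higher was 1. The summed level of the list was 23.87 CPM, against 12.22 CPM in HT1197 to 599.9 CPM in TCCSUP, with a median of 307.68 CPM elsewhere. Its median log2 difference was −2.11, or −0.52 with each line counted equally.

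Expression limited to HT1376 was described without a test. At 1 CPM or more in all 3 HT1376 libraries and under 0.1 CPM in each other line, 38 genes qualified, 32 of them protein coding, 11 on chromosome 1 and 7 on the X chromosome. Without replicate 1 the number was also 38. By the same thresholds the other lines had 1 gene (T24) to 42 genes (HT1197). S100A7 and PTH2R, a parathyroid hormone receptor at 15.1, 13.3 and 14.9 CPM, were the most abundant with CT45A10, at 12, 11.4 and 11 CPM. The germ-line genes SAGE1, BRDT and PSMA8 and the keratin KRT77 were also among them. So were FCGR3A and FCGR3B, near-identical immunoglobulin receptors of leukocytes, at means of 2.30 and 2.57 CPM.

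Conversely, 30 genes were under 0.1 CPM in HT1376 and at 1 CPM or more in at least 6 of the other 7 lines, and 31 without replicate 1. The other lines lacked 5 genes (T24) to 52 genes (639V). HOX genes made up 11 of the 30, and the Iroquois homeobox genes IRX3 and IRX5 were 2 more. IRX5 had no count in any of the 3 HT1376 libraries, which allows up to 0.0268 CPM, and it was also at 0 in HT1197. TNIK, a kinase of the Wnt pathway, was the lacked gene with the highest median elsewhere, 58.5 CPM, against 0.0501, 0.0845 and 0.11 CPM in HT1376. Both counts depended on the thresholds, ranging from 18 to 62 and from 11 to 61.

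Position on the chromosomes showed where these genes lay next to each other. Windows of 25 neighbouring genes ran only over genes that passed the filter of the line-unit test, for which 1 line with enough counts sufficed. The highest median log2 difference, 7.15, was on chromosome 1 from CRCT1 to LORICRIN. This is a span of 0.75 Mb in the epidermal differentiation complex where 15 genes were set apart. Genes of this complex such as KPRP passed the filter only through HT1376, so the median is partly set by the filter. Next came the keratins of chromosome 12 from KRT7 to KRT78 (2.47, with 10 set apart) and the GAGE and PAGE region of the X chromosome from WDR45 to PAGE4 (2.05, with 12 set apart). GAGE copies are near-identical, and GAGE12J passed the filter only through HT1376, so the values of the X window are also partly set by the filter. With levels raised to 3 counts the 3 medians were 4.77, 2.94 and 2.33.

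The lowest windows were the HOXB region of chromosome 17 from SKAP1 to ABI3 (−7.66, with 9 set apart), the protocadherin genes of chromosome 5 from PCDHA5 to PCDHB13 (−4.43, with 2 set apart) and olfactory receptor genes on chromosome 11 (−3.92, none set apart). In these windows 11, 16 and 14 of the 25 genes had 3 counts or fewer in HT1376, and the medians with levels raised to 3 counts were −2.14, −1.97 and −0.62. By whole chromosome, 9.05% of tested genes on X, 7.25% on chromosome 16 and 5.62% on chromosome 1 were set apart higher, against 4.04% of all. On chromosome 12, 4.31% were set apart lower, against 2.13% of all. The X share includes near-identical GAGE copies, and the median log2 difference of X was −0.22, near the −0.26 of all genes.

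Likeness over 18643 genes, as Pearson's r of log2 CPM across genes, was highest with HT1197 (0.870) and SW780 (0.866) and lowest with 639V (0.801). HT1376 replicates agreed among themselves at 0.9919 or more. The correlations share all HT1376 libraries and describe these libraries only. Spearman's rho was 0.875 with both HT1197 and SW780.

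With CPI-0209 the identity of HT1376 was compared again in the 24 treated libraries, which are other libraries of the same lines. The line-unit test called 36 of 22321 genes higher (0.161%) and none lower in edgeR, the tool used there, with 549 lower at an unadjusted p under 0.05. Of the 53 genes called in DMSO, 19 were called again, which is 19 of the 36. All 3 treated HT1376 libraries lay above every treated library of the other lines for 706 of the 754 genes set apart higher, and below for 280 of the 397 set apart lower. Over all 18643 genes these shares were 10.3% above and 7.17% below.

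HT1376's own response to CPI-0209 (3 treated against 3 DMSO libraries) comprised 3875 of 16346 genes higher (23.7%) and 2619 lower (16%) in edgeR, and 4045 and 3198 without DMSO replicate 1. The number lower was 1587 without CPI-0209 replicate 3. This comparison shares the DMSO libraries of HT1376 with the comparison of lines, so values are set side by side and no overlap is drawn. KRT1 stood at 88.2 ± 6.07 CPM (SD, n = 3) in DMSO and 523 ± 60.2 CPM in CPI-0209, where the other lines had at most 0.235 CPM. The log2 response was 2.59 ± 0.09 (SE, adjusted p = 5.75e-08 in edgeR). SBSN rose from 14.9 to 93.0 CPM and S100A7 from 37.5 to 132 CPM, both past the threshold. HLA-G, at 251 CPM, and PNMA5, at 299 CPM, did not pass it (adjusted p = 0.898 and 0.556 in edgeR).

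Several genes low in HT1376 rose with CPI-0209 and were still below every other treated line. ITM2C went from 1.21 ± 0.43 to 16.2 ± 1.02 CPM (SD, n = 3), with at least 76.3 CPM in the other treated lines. HOXB7 went from 0.116 to 2.01 CPM (log2 4.10 ± 0.27, SE, adjusted p = 2.23e-06 in edgeR), with at least 12 CPM elsewhere. DIP2C went from 0.098 to 5.26 CPM, with at least 13.0 CPM elsewhere. CDH2, at 0.204 CPM, and CCNJ, at 0.0587 CPM, were too low to be tested. Of the 10 HOX genes that could be tested 8 rose and none fell, where 23.7% of all genes tested rose, but the expression filter shaped this count. HOXB4 and HOXD11, at 0.026 and 0.017 CPM in DMSO, entered the test only through the treated libraries. HOXB3, HOXB2 and HOXA9 stayed too low in both and were not tested, so the count says nothing of HOX genes in general. Of the 43 basal and squamous genes 33 rose and 2 fell, where 23.7% of all genes tested rose and 16% fell. The calls of this list in DMSO came from the same DMSO libraries, so no overlap is read from the count.

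Antigen presentation genes of class II also rose. HLA-DRA measured 0.752, 0.676 and 0.797 CPM in DMSO, set apart from at most 0.0598 CPM elsewhere, and 47.6, 48.4 and 40.6 CPM in CPI-0209, where the other lines had at most 1.33 CPM. CD74, the invariant chain, went from 7.75, 5.26 and 5.17 CPM, inside the range of the other lines, to 261, 265 and 248 CPM, against at most 15.3 CPM. CIITA, the class II transactivator, went from 3.81, 3.72 and 3.71 CPM to 43.8, 31.3 and 34.1 CPM. All 12 class II genes that could be tested rose with CPI-0209 by edgeR, where 23.7% of all genes tested rose. Only 3 of the 13 listed reached 1 CPM in HT1376 in DMSO. A member scarce in DMSO could enter this test only through the treated libraries, so the count is partly set by the filter. In DMSO, of 13 tested, HLA-DRA was set apart higher and HLA-DOB lower, a call lost without replicate 2.

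**Figure D5:**
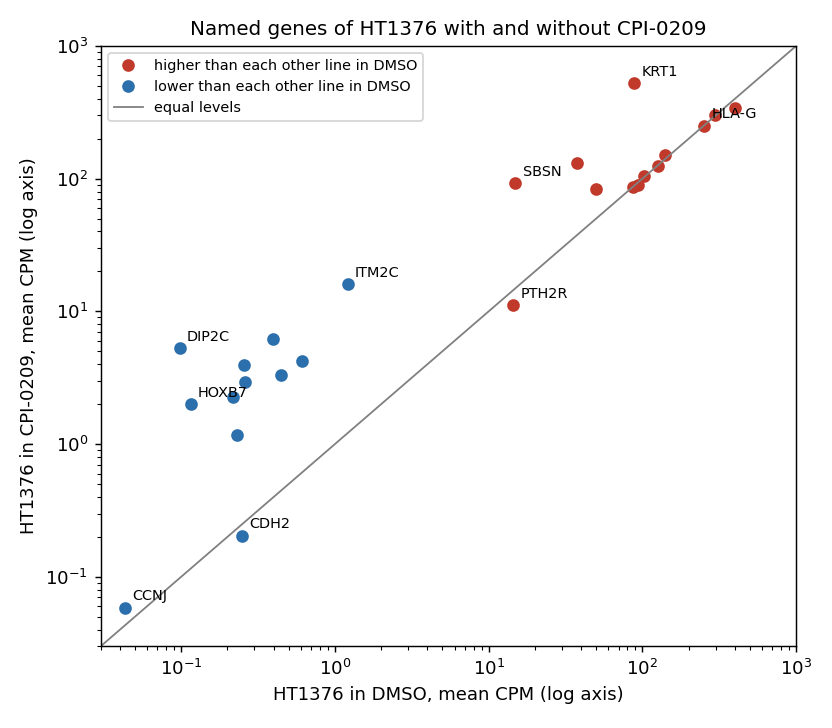
Mean CPM of SBSN and of the 24 genes with the largest gaps to the nearest line, in HT1376 in DMSO (horizontal) and in CPI-0209 (vertical), 3 libraries each, both axes log, with the grey line for equal levels. Red points were set apart higher in DMSO and blue points lower; KRT1 and SBSN lie above the line, HLA-G on it, and ITM2C, HOXB7 and DIP2C above it at low levels.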

How the data were processed

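RNA was measured by sequencing in 48 libraries, 3 per line and treatment. Per the submitters' processing notes, reads were handled with STAR 2.7.3a and RSEM 1.3.1 on hg38; the authors deposited whole-number counts per gene, while the sources used here do not say how estimates became whole numbers or whether strand was used, which leaves antisense, overlapping and near-identical genes uncertain. Libraries were grouped from their labels. Symbols and positions came from a name table and GENCODE 29. Computed here were TMM sizes, filterByExpr, robust quasi-likelihood tests (edgeR 4.0.16, R 4.3.3) with Benjamini-Hochberg adjustment at 0.05, and, as an alternative, DESeq2 1.42.0. SE is the absolute log2 difference over the square root of F. The line-unit test summed counts per line. Fits were tested on simulated data, where the line-unit test recovered part of the large rises and none of the falls or smaller changes, so a gene that does not pass it is not shown to be alike between lines, and its higher and lower counts cannot be compared. Intervals and floors (3 counts) cover counting error only. Named genes were the 12 higher and 12 lower with the largest ratio to the nearest line, the 6 and up to 4 smallest line-unit p-values, up to 4 set-apart members per list, and 26 identity genes; loci without established symbols were passed over. Members and lists were chosen with earlier results of these data known. Of 658 list entries, 656 matched a gene. Replicate numbers were not used to pair libraries in the main tests. A few listed genes are not reported here.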

Additional observations from a re-analysis of the deposited data

How the results depend on the processing

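The counts of genes set apart moved by no more than 1.5 times under RLE factors, library totals, DESeq2, no filter and leaving out each line or HT1376 replicate (752 to 765 higher and 388 to 399 lower over the replicates); without a minimum fold they were 1849 and 1267, and at 4-fold 352 and 176. With a replicate block they were 753 and 394. Deviations of same-numbered libraries from their own group means correlated between −0.236 and 0.057, so the values showed no positive pairing by number. Whether same-numbered libraries were handled together cannot be told from this. The response with the replicate block had 3271 genes higher and 1470 lower, and leaving out a library gave 3328 to 4045 and 1587 to 3198. The line-unit test moved most: 1 gene lower under library totals, 357 and 424 under DESeq2, 933 and 970 with the 3 libraries as 3 units, and 12, 12, 8, 21, 8 and 11 higher with 0 lower on leaving out KU1919, SW780, T24, TCCSUP, VMCUB and 639V; without each HT1376 replicate it gave 51 to 52 and 2 to 3. In CPI-0209 leaving out these lines gave 15, 9, 12, 37, 9 and 9 higher, leaving out HT1197 gave 2 lower, and leaving out a replicate gave 31 to 37 and 0. Genes expressed alone numbered 62 and 22 at 0.5 and 2 CPM and 18 with 0.05 CPM as the lacking level; genes lacked numbered 53 at 0.5 CPM, 11 at 0.05 and 61 at 0.2 CPM. Leaving out each HT1376 replicate, chosen after seeing the data, gave 38 to 43 expressed alone and 24 to 37 lacked. Windows of 50 genes had medians of 4.61 and −2.47. Of the 19 named genes called in the line-unit test, 13 lost the call on leaving out some line; no value reversed. A count of 0 over the 3 HT1376 libraries allows up to 0.0268 CPM.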
